A study of Mus musculus with 3 samples.

Results

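The collagen genes of the mouse were followed through single-cell RNA profiles of injured brain: every gene whose symbol is Col, a number, a and a number was taken, which gave 44 of the 55357 genes listed. All 44 had at least 1 unique molecular identifier (UMI, 1 captured RNA molecule). Among them 33 had at least 50 UMIs over the libraries and are given in every library, and 11 had 1 to 49.

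The tissue was cerebral tissue beside the lesion on the left side, from male C57BL/6 mice aged 6 to 8 weeks. There were 3 groups: sham, traumatic brain injury with phosphate-buffered saline (TBI+PBS), and traumatic brain injury with the cytokine interleukin-25 (TBI+IL-25). By its title, the TBI+PBS library had PBS treatment for 3 days after injury. Mice of the TBI+IL-25 group received 1 µg of IL-25 inside the first 30 minutes and then daily doses over 3 days. Each group was 1 library, and the labels do not give the number of animals in it. Every difference below therefore compares 2 libraries with no replicate check; no test was possible, and intervals (95%) cover counting error only.

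Collagens are secreted or membrane proteins built of chains wound into triple helices. Fibrillar collagens form the fibres of connective tissue, collagen IV forms the network of basement membranes, collagen VI forms beaded filaments, and fibril-associated collagens sit on fibre surfaces. In the brain, interstitial collagen is largely limited to meninges and vessels, and collagen IV lies in the basement membrane between endothelium, pericytes and astrocyte endfeet.

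According to the labels' protocols, collagenase digestion freed the cells, dead cells were taken out, and a 10x 3′ kit was used. The libraries held 8939, 10643 and 14222 barcodes and 39536447, 58148289 and 61372408 UMIs (sham, TBI+PBS and TBI+IL-25; this order holds throughout). After doublet and quality filters 8710, 10299 and 13532 cells remained, with medians of 4111, 4666 and 3841 UMIs. Between 24 and 39 barcodes were shared by any 2 libraries. The 27 clusters were made without collagen genes and fell into 13 classes named from markers. Microglia-like cells (4995, 4591 and 5530) and astrocyte-like cells (3285, 4523 and 6688) dominated. Endothelial cell-like (37, 227 and 50), fibroblast-like (7, 23 and 25) and pericyte-like cells (5, 15 and 17) were few. The fibroblast-like cluster showed 10 of 12 fibroblast markers, and the endothelial cell-like cluster showed 10 of 10 of its own.

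Each level is in CPM (counts per 1000000), which relates a gene's UMIs to the summed UMIs of the cells in question. UMIs count 3′ ends, so levels were not divided by gene length. A gene was counted as past 2-fold when the ratio of 2 levels was at least 2 or at most 0.5, among genes with at least 50 UMIs over the libraries.

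Most collagen UMIs lay in glia-like classes in every library, but the division differed between libraries. In sham, microglia-like cells held 5510 of 10814 collagen UMIs (51.0%, exact binomial interval 50.0% to 51.9%) and astrocyte-like cells held 4130 (38.2%). In TBI+PBS and TBI+IL-25 the microglia-like share was 22.6% and 26.8%. The astrocyte-like share there was 47.6% and 51.6%. Fibroblast-like cells held 2.86%, 12.7% and 6.00% over the libraries. Their sham level, from 309 UMIs, was the highest of these classes, at 9389 CPM against 281 CPM in microglia-like and 280 CPM in astrocyte-like cells. Over the 3 libraries, the UMIs of single genes were divided unevenly between classes, which also differ in size. Microglia-like cells held 74.9% of the UMIs of Col27a1, 85.9% of Col15a1, 84.8% of Col6a3 and 87.8% of Col25a1. Astrocyte-like cells held 94.3% of Col5a3, 94.1% of Col16a1, 90.7% of Col11a2 and 87.1% of Col4a5. Fibroblast-like cells held 96.7% of Col3a1 and 86.6% of Col13a1, and choroid plexus epithelium-like cells held 84.6% of Col8a1. The largest share was not always the highest level. Col6a3 was highest in fibroblast-like cells, at 85.3 CPM against 5.93 CPM in microglia-like cells. Col4a5 was also highest there, at 94.8 CPM. Col5a3 was highest in ependymal cell-like cells, at 66.4 CPM against 37.5 CPM in astrocyte-like cells. Share and level went together for Col3a1, at 1095 CPM in fibroblast-like cells.

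**Figure D1:**
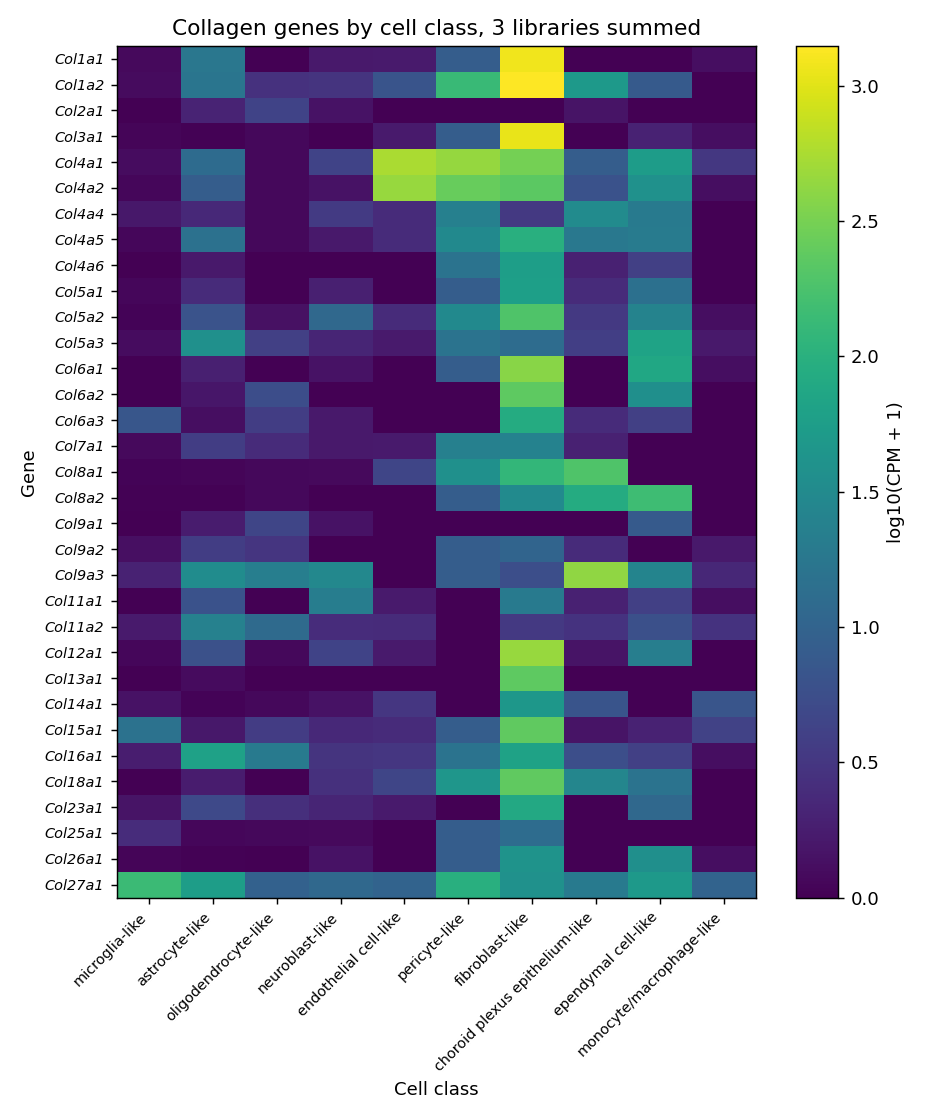
Level of the 33 collagen genes with at least 50 UMIs (vertical) in 10 cell classes (horizontal), as log10(CPM + 1) with the 3 libraries summed. The fibroblast-like column is bright for Col1a1, Col1a2 and Col3a1, and Col27a1 is the brightest gene in the microglia-like column.

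Over all cells, the summed collagen level was 286, 269 and 229 CPM. The ratio was 0.941 (0.918 to 0.965) for TBI+PBS over sham, 0.802 (0.782 to 0.823) for TBI+IL-25 over sham and 0.852 (0.832 to 0.872) for TBI+IL-25 over TBI+PBS. With median-of-ratios size factors in place of CPM the same 3 ratios were 1.00, 0.947 and 0.948, so the lower sum depends on the scaling. These comparisons share libraries and are given side by side. Beneath the sum, members went both ways. In TBI+PBS over sham, 11 of 33 members were at least 2-fold higher and 4 were at most 0.5-fold, where 8.22% and 5.27% of all genes with that minimum were. For TBI+IL-25 over sham, 9 were higher and 7 lower, beside 10.8% and 17.8% of all genes. In TBI+IL-25 over TBI+PBS, 3 were higher and 10 lower, beside 4.22% and 8.75% (4 and 8 with the size factors). The median log2 ratio of the 33 members was 0.36, 0.18 and -0.59, and that of all genes was -0.10, -0.23 and -0.15. A level over all cells carries both the number of cells of a class and the RNA in each of them, which cannot be told apart there.

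**Figure D2:**
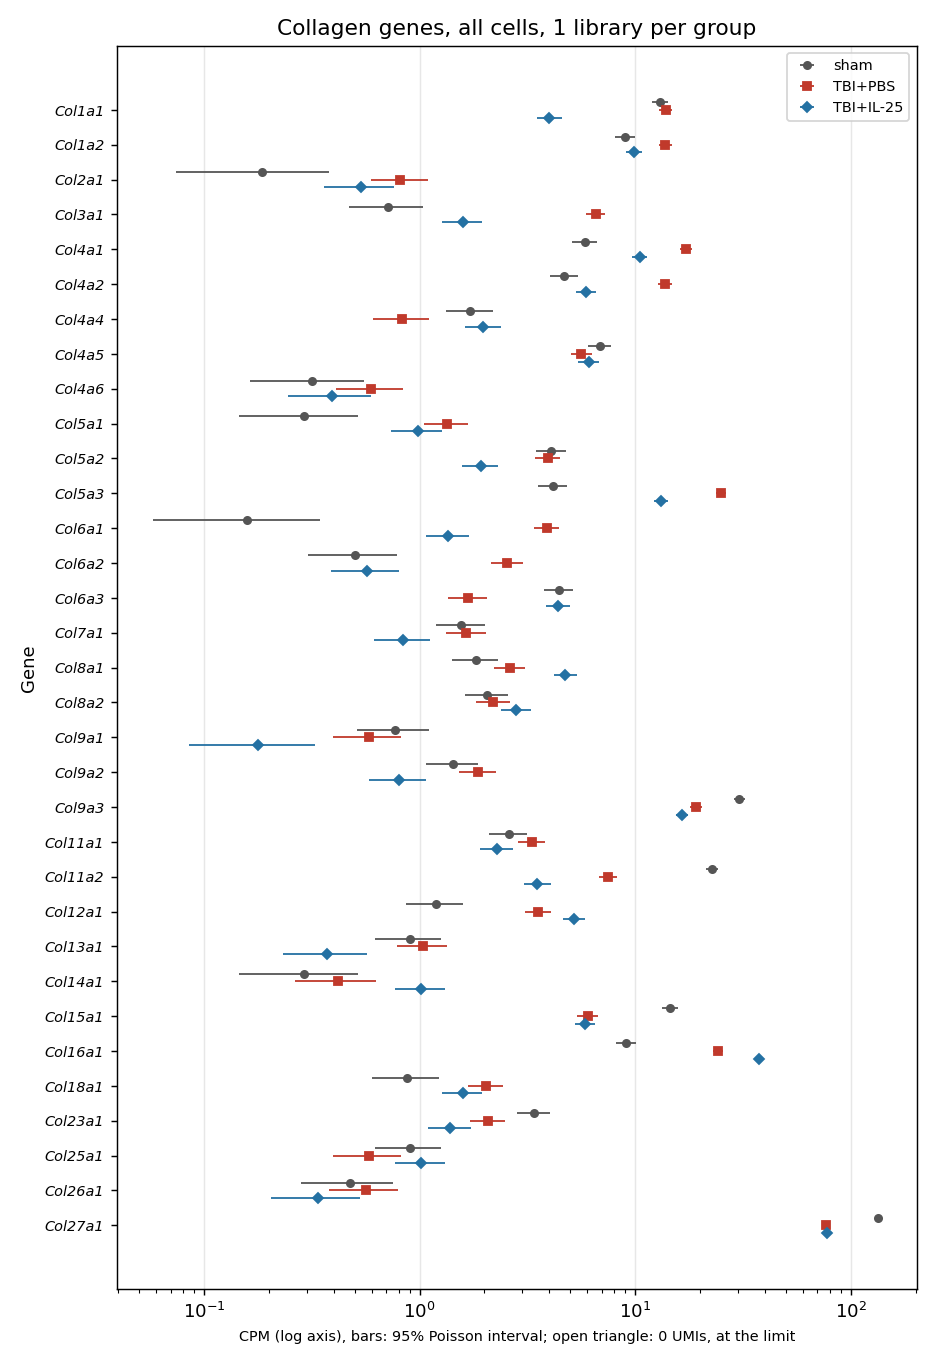
Level of 33 collagen genes over all cells in the 3 libraries, in CPM on a log axis, with 95% Poisson intervals. Col3a1, Col5a3, Col6a1, Col12a1 and Col16a1 lie lowest in sham, and Col11a2, Col15a1 and Col27a1 lie highest in sham.

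Among the fibrillar collagens, Col1a1 and Col1a2 encode the chains of collagen I, the main collagen of connective tissue. Over all cells Col1a1 stood at 13.1, 13.9 and 4.00 CPM and Col1a2 at 9.01, 13.8 and 9.91 CPM. The 2 chains parted in TBI+IL-25, where Col1a1 was 0.289-fold (0.248 to 0.336) and Col1a2 0.717-fold (0.641 to 0.800) its TBI+PBS level. Col3a1, the chain of collagen III, was at 0.713, 6.56 and 1.58 CPM, which was 9.19-fold (6.21 to 14.1) higher in TBI+PBS than in sham. Fibroblast-like cells, which held nearly all of it, were 7, 23 and 25 in number.

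The minor fibrillar chains separated into higher and lower genes. Col5a3, a collagen V chain, was at 4.15, 25.1 and 13.2 CPM, and Col5a1 was at 0.291, 1.34 and 0.979 CPM. Their companion Col5a2 was at 4.07, 3.93 and 1.92 CPM, thus lowest in TBI+IL-25. Col2a1, the cartilage collagen II, was at 0.185, 0.815 and 0.534 CPM, from 7, 45 and 30 UMIs. Col11a1 and Col11a2, chains of collagen XI, differed from each other. Col11a1 stayed within 2-fold at 2.59, 3.31 and 2.28 CPM, while Col11a2 was at 22.8, 7.48 and 3.52 CPM, lower in both injured libraries. Col27a1, a fibrillar collagen known from cartilage, had the most UMIs of any member (13663) and was at 133, 76.6 and 78.0 CPM.

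Collagen IV chains differed in their order over the libraries. Col4a1 and Col4a2, the chains of the common collagen IV network, were at 5.84, 17.3 and 10.5 CPM and at 4.70, 13.8 and 5.94 CPM over all cells. Both were highest in TBI+PBS, the library with 227 endothelial cell-like cells. Col4a4, found in specialised basement membranes, was at 1.72, 0.833 and 1.98 CPM; with cells thinned to 1000 UMIs its ratio of TBI+PBS over sham turned from 0.485 to 2.28, on 3, 8 and 19 UMIs. Col4a5 differed little, at 6.84, 5.63 and 6.09 CPM. Col4a6 was at 0.317, 0.598 and 0.392 CPM.

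Collagen VI chains did not move together. Col6a1 was at 0.158, 3.89 and 1.35 CPM and Col6a2 at 0.502, 2.55 and 0.569 CPM, both highest in TBI+PBS. With cells thinned to 1000 UMIs, Col6a1 in TBI+IL-25 over TBI+PBS turned from 0.347-fold to 1.10-fold, on 2, 15 and 21 UMIs. Col6a3 had 168, 93 and 247 UMIs and was lowest in the same library, at 0.380-fold (0.291 to 0.492) sham. Of the network-forming collagen VIII chains, Col8a1 was at 1.82, 2.63 and 4.75 CPM and Col8a2 at 2.06, 2.19 and 2.81 CPM.

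Among fibril-associated collagens, Col16a1 stood out with 9.11, 24.2 and 37.6 CPM, highest in TBI+IL-25. Col12a1 had the same order, at 1.19, 3.55 and 5.21 CPM, and Col14a1 was at 0.291, 0.416 and 1.01 CPM. The collagen IX chains had the opposite order or none. Col9a3 was at 30.4, 19.2 and 16.5 CPM, Col9a1 at 0.766, 0.579 and 0.178 CPM, and Col9a2 at 1.43, 1.87 and 0.801 CPM.

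The 2 multiplexins, which carry endostatin-like ends and sit in basement membrane zones, went apart: Col15a1 was at 14.5, 6.03 and 5.86 CPM and Col18a1 at 0.872, 2.03 and 1.58 CPM. Of the transmembrane collagens, Col13a1 was at 0.898, 1.03 and 0.374 CPM, Col23a1 at 3.41, 2.08 and 1.39 CPM, and Col25a1 at 0.898, 0.579 and 1.01 CPM. Col7a1, the anchoring-fibril collagen, was at 1.56, 1.65 and 0.836 CPM. Col26a1 was at 0.475, 0.561 and 0.338 CPM. None of the last 4 was past 2-fold except Col23a1, at 0.407-fold (0.303 to 0.544) in TBI+IL-25 over sham.

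In microglia-like cells, the resident immune cells of the brain, collagen RNA was mainly Col27a1 and was lower after injury. The summed collagen level was 281, 134 and 124 CPM, a ratio of 0.475 (0.455 to 0.496) for TBI+PBS over sham and 0.440 (0.421 to 0.459) for TBI+IL-25 over sham. Col27a1 was at 239, 113 and 96.9 CPM, 0.475-fold (0.453 to 0.497) and 0.406-fold (0.387 to 0.425) sham. Col15a1 was at 25.9, 10.1 and 9.99 CPM, 0.390-fold (0.334 to 0.454) and 0.385-fold (0.332 to 0.447) sham. Both were highest in sham by more than the counting error, and the injured libraries lay close to each other.

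A UMI of Col27a1 was found in 54.1%, 40.5% and 32.8% of microglia-like cells, and in 21.4%, 11.6% and 9.35% of them once each cell was thinned to 1000 UMIs. In T cell-like cells, used as a background class, 1 of 14, 1 of 65 and 8 of 92 cells held one, and none did after thinning. Other immune classes were not all at 0 after thinning. Monocyte/macrophage-like cells had 0 of 10, 2 of 246 and 3 of 105. In TBI+PBS and TBI+IL-25, B cell-like cells had 2 of 23 and 1 of 25, and neutrophil-like cells 0 of 10 and 0 of 40.

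Col6a3 did not share that order. It was at 7.50, 2.31 and 8.09 CPM, so TBI+PBS alone was low, at 0.307-fold (0.223 to 0.419) sham, and TBI+IL-25 was 3.51-fold (2.62 to 4.76) TBI+PBS. Col25a1, at 1.53, 1.11 and 1.79 CPM, was within 2-fold in each pair. Col11a2 was at 1.48, 0.438 and 0.358 CPM and Col16a1 at 0.204, 1.03 and 0.967 CPM, from 4 to 29 UMIs a library. Both had most of their UMIs in astrocyte-like cells. The 10 astrocyte markers summed to 538, 343 and 469 CPM in microglia-like cells (18961 CPM in astrocyte-like cells), and their part in these values was not tested. Of the 7 members with enough UMIs in microglia-like cells, 4 were at most 0.5-fold and 1 at least 2-fold in TBI+PBS over sham, beside 6.58% and 6.96% of all genes. For TBI+IL-25 over sham 3 were lower and 1 higher, beside 14.7% and 10.7%. Between the injured libraries none was lower and 1 was higher, beside 4.21% and 4.46%.

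The class was filled by different clusters in each library. Cluster 0 held 4479 of the 4995 sham cells, while clusters 4, 5, 6 and 8 held most cells of the injured libraries. Within cluster 0 alone Col27a1 was at 243, 191 and 224 CPM, and within cluster 4, which all libraries filled, it was at 228, 130 and 147 CPM. The summed collagen ratio over sham within cluster 4 was 0.573 and 0.700. Within cluster 4 Col15a1 was at 31.4, 14.4 and 18.8 CPM. Col6a3 was lowest in TBI+PBS in both, at 7.53, 2.54 and 12.8 CPM in cluster 0 and 5.93, 3.24 and 12.2 CPM in cluster 4, where the sham value rests on 10 UMIs and its interval overlaps that of TBI+PBS.

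Astrocyte-like cells had the most members with at least 50 UMIs (20), and some were higher and some lower after injury. The summed collagen level was 280, 338 and 306 CPM, ratios of 1.21 (1.16 to 1.25) and 1.09 (1.05 to 1.14) over sham. In TBI+PBS over sham 7 of 20 members were at least 2-fold higher and 3 at most 0.5-fold, beside 7.14% and 4.75% of all genes. In TBI+IL-25 over sham 7 were higher and 6 lower, beside 11.3% and 22.2%. Between the injured libraries 1 was higher and 5 lower in TBI+IL-25, beside 3.81% and 11.3%. The median log2 ratio of these members was 0.04, -0.17 and -0.42, beside -0.05, -0.28 and -0.21 for all genes.

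The higher genes included the abundant Col5a3, Col16a1 and Col27a1. Col5a3 was at 8.34, 63.5 and 32.2 CPM, 7.62-fold (6.33 to 9.24) and 3.86-fold (3.18 to 4.71) sham, and in TBI+IL-25 it was 0.506-fold (0.461 to 0.555) TBI+PBS. Col16a1 was at 22.8, 59.1 and 92.1 CPM, 2.60-fold (2.30 to 2.94) and 4.04-fold (3.60 to 4.55) sham. Col27a1 was at 20.1, 61.4 and 72.4 CPM, 3.05-fold (2.69 to 3.47) and 3.60-fold (3.17 to 4.08) sham. Sham was lowest for all 3, and the injured libraries came in one order for Col5a3 and in the other for Col16a1 and Col27a1. Col27a1 in these cells therefore ran opposite to Col27a1 in microglia-like cells. The 10 microglia markers summed to 1384, 1089 and 659 CPM in astrocyte-like cells (34926 CPM in microglia-like cells), highest in sham. Their part in the Col27a1 values of astrocyte-like cells was not tested.

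Of the less abundant genes, Col12a1 was at 1.15, 3.92 and 8.75 CPM, 7.60-fold (4.62 to 13.3) sham in TBI+IL-25, but within cluster 1 alone it turned to 0.502-fold sham and 0.493-fold TBI+PBS. Col5a1 was at 0.475, 1.82 and 1.71 CPM, and Col2a1 at 0.339, 1.86 and 0.783 CPM. Col6a1, also counted as higher over sham, had 0, 32 and 20 UMIs and so reached the minimum through the injured libraries alone. With the sham value, 0 of 14752646 UMIs, set to 0.203 CPM, Col6a1 was 7.52-fold and 4.53-fold sham in TBI+PBS and TBI+IL-25. These ratios are values without counting error and are not lower limits.

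The lower genes with the highest sham levels were Col9a3, Col11a2 and Col1a1. Col11a2 was at 55.2, 16.6 and 8.02 CPM, 0.300-fold (0.264 to 0.341) and 0.145-fold (0.122 to 0.171) sham. Col9a3 was at 58.0, 33.5 and 15.3 CPM, 0.577-fold (0.522 to 0.638) and 0.264-fold (0.232 to 0.300) sham. Col1a1 was at 29.4, 19.1 and 5.44 CPM, 0.649-fold (0.566 to 0.746) and 0.185-fold (0.150 to 0.228) sham. All 3 had the order sham, TBI+PBS, TBI+IL-25 from high to low. Col5a2 was at 8.34, 5.35 and 3.23 CPM, Col23a1 at 7.19, 3.20 and 2.44 CPM, Col7a1 at 3.59, 3.11 and 1.71 CPM, and Col4a4 at 2.03, 0.860 and 1.24 CPM.

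The remaining genes differed little or in 1 library. Col1a2 was at 17.9, 15.0 and 14.6 CPM, Col4a5 at 15.8, 12.8 and 13.5 CPM, and Col4a2 at 8.07, 7.41 and 7.46 CPM. Col4a1 was at 9.02, 10.3 and 14.6 CPM. Col11a1 was at 4.14, 6.45 and 4.70 CPM and Col9a2 at 2.78, 3.97 and 1.47 CPM.

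**Figure D3:**
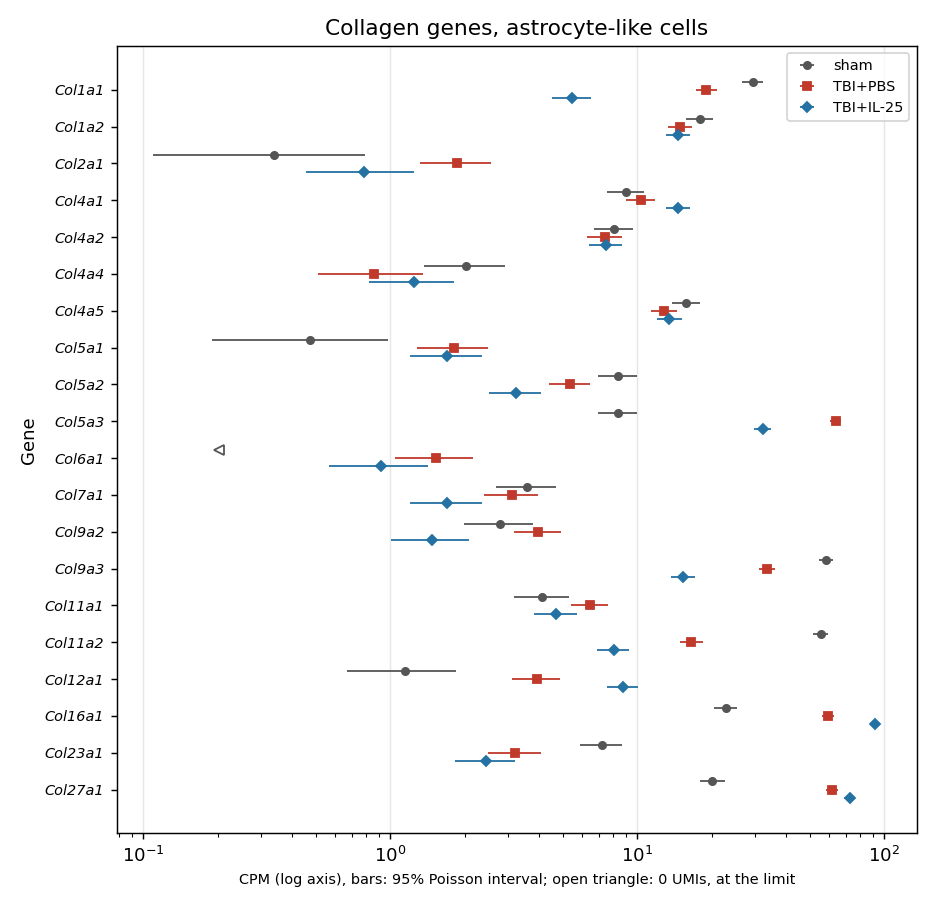
Level of 20 collagen genes in astrocyte-like cells of the 3 libraries, in CPM on a log axis with 95% Poisson intervals; the open triangle is the limit for 0 UMIs. Col5a3, Col16a1 and Col27a1 lie lowest in sham, and Col1a1, Col9a3 and Col11a2 fall from sham through TBI+PBS to TBI+IL-25.

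The RNA of Col1a1 in astrocyte-like cells was above that in another glial class. A UMI was found in 11.6%, 7.38% and 1.58% of astrocyte-like cells (median 4511, 4328 and 2957 UMIs) and in 0.120%, 0.152% and 0.0362% of microglia-like cells (median 3916, 4748 and 4730 UMIs). After thinning to 1000 UMIs the astrocyte-like shares were 2.75%, 2.28% and 0.679%. The 12 fibroblast markers, none of them a collagen, summed to 51.7, 48.2 and 31.2 CPM in astrocyte-like cells (24001 CPM in fibroblast-like cells) with 4, 5 and 3 of them at 0; their part was not tested.

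The astrocyte-like class, too, was filled by different clusters. Clusters 1, 3 and 13 held cells of every library, cluster 10 was 1162 of 1206 cells TBI+PBS, cluster 2 was 2781 of 2843 cells TBI+IL-25, and cluster 12 had 1, 317 and 393 cells. Within cluster 1 alone 0 of 14 members were at least 2-fold higher over sham in TBI+PBS or TBI+IL-25, where 1.14% and 2.33% of all genes were. Within cluster 3 alone 1 of 14, Col1a2, was higher in each, beside 1.97% and 3.9% of all genes. Col5a3 was at 128 CPM in cluster 10 of TBI+PBS and 44.0 CPM in cluster 2 of TBI+IL-25, but at 11.0, 17.2 and 15.4 CPM within cluster 1 and 7.50, 13.7 and 11.6 CPM within cluster 3. Col27a1 was at 97.5 CPM in cluster 10 and 102 CPM in cluster 2, while within cluster 1 its order turned, at 23.4, 21.3 and 10.7 CPM. Col16a1 was within 2-fold inside cluster 1 (27.6, 37.4 and 30.0 CPM) and cluster 3 (21.0, 31.1 and 32.5 CPM), and in cluster 13 it was at 24.5, 62.1 and 136 CPM.

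Lower genes were lower in TBI+IL-25 than in sham inside single clusters too. Col11a2 was at 66.1, 27.4 and 19.8 CPM in cluster 3 and 72.7, 30.6 and 12.4 CPM in cluster 13. Col1a1 was alike in sham and TBI+PBS and lower in TBI+IL-25, at 51.0, 56.5 and 31.8 CPM in cluster 1, 22.0, 19.4 and 6.61 CPM in cluster 3, and 27.2, 25.2 and 6.87 CPM in cluster 13. Col9a3 was at 67.8, 57.4 and 31.3 CPM in cluster 1 and 59.0, 37.5 and 27.5 CPM in cluster 3.

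**Figure D4:**
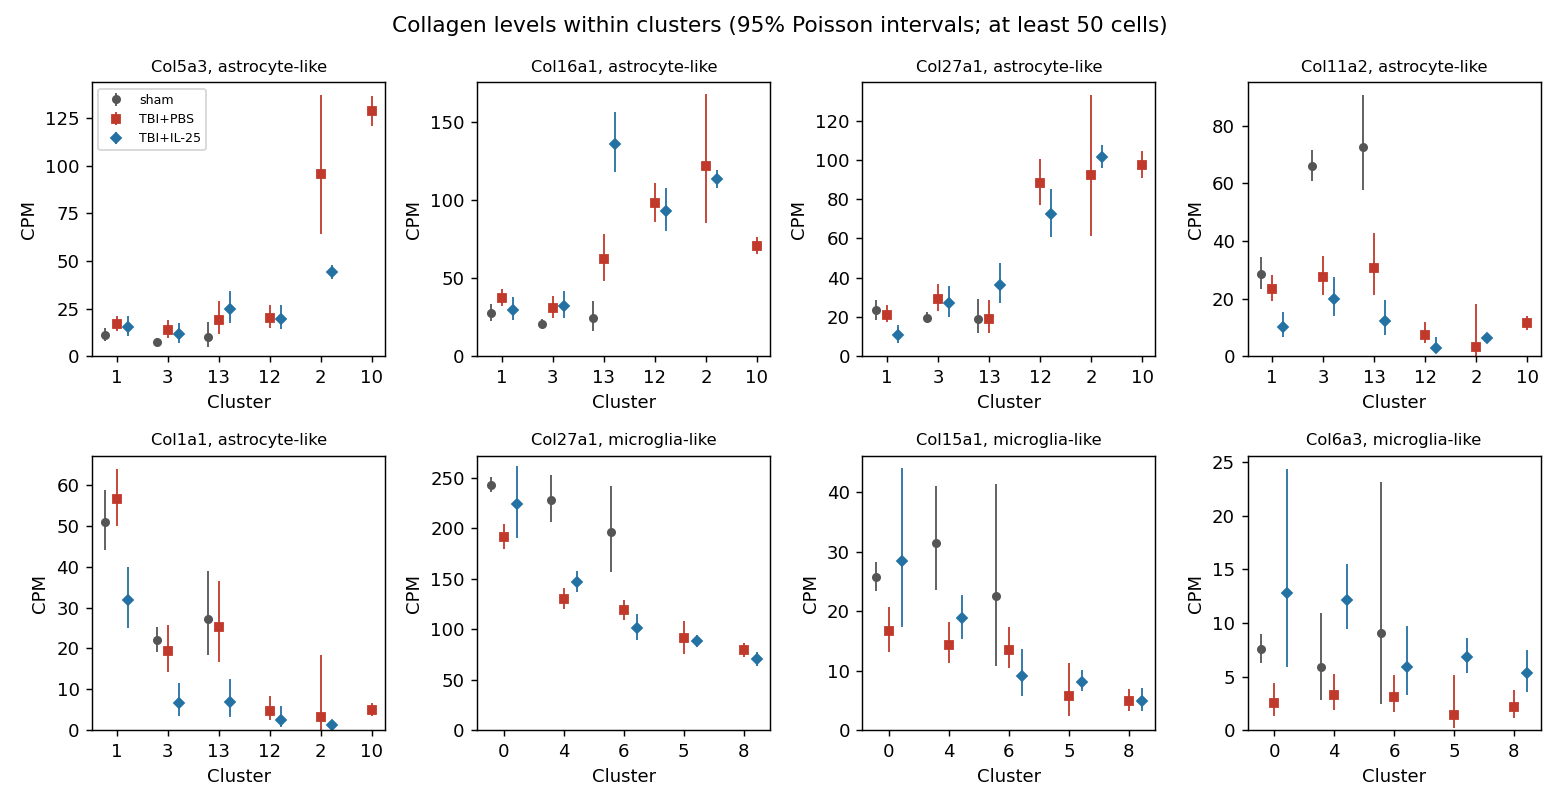
Level (CPM, vertical) of 5 collagen genes in astrocyte-like clusters and 3 in microglia-like clusters (horizontal), by library, with 95% Poisson intervals; points rest on at least 50 cells. Col5a3 and Col27a1 are high in astrocyte-like clusters 2 and 10, which have no sham point, and the Col6a3 point is lowest in TBI+PBS in each of the 5 microglia-like clusters shown. Clusters 5 and 8 have no sham point; the TBI+PBS interval overlaps that of sham in clusters 4 and 6 and that of TBI+IL-25 in cluster 6.

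The stretches before the starts of Col5a3, Col16a1 and Col27a1 are shown because these were the most abundant of the 7 genes past 2-fold higher over sham in astrocyte-like cells. RefSeq windows (GRCm38.p6) were matched for 35 of the 44 members. The GC box GGGCGG, searched on both strands, is in capitals, and each line is read on the gene's strand up to the start.
Col5a3 (chr9:20815068-20815317, minus strand): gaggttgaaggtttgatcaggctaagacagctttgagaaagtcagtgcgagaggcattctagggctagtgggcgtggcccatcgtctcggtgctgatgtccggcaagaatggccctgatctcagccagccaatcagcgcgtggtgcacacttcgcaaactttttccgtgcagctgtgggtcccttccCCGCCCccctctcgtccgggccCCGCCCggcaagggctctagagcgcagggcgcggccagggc
Col16a1 (chr4:130047590-130047839, plus strand): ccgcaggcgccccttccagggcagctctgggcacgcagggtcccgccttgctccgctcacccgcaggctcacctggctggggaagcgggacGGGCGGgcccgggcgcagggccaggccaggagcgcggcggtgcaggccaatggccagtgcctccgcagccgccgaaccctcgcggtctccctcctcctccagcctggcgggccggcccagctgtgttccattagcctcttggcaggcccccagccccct
Col27a1 (chr4:63215162-63215411, plus strand): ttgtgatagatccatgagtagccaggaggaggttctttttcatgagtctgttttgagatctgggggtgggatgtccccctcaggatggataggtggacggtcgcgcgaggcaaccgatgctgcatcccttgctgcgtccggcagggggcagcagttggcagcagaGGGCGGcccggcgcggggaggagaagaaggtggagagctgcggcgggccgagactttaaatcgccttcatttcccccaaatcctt
The GC box occurred 2 times before Col5a3 and 1 time before each of the others. Over the 38 collagen windows, of 250 bases before and 50 after a start, 23 held a GC box, where 35.7% of all 32851 windows did. The AP-1 motif TGANTCA, searched on both strands, was in none of the 3 stretches and in 1 of 38 collagen windows, beside 7.81% of all windows.

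Endothelial cells line the vessels and lay down collagen IV. With the 3 libraries summed, the endothelial cell-like class held 45.2% of Col4a1 and 50.5% of Col4a2 UMIs. Only these 2 members had at least 50 UMIs in it. By library it held 39 of 221, 607 of 956 and 152 of 589 Col4a1 UMIs, and astrocyte-like cells held 133, 216 and 317. For Col4a2 the class held 29, 515 and 99 UMIs, and astrocyte-like cells 119, 155 and 162. Astrocyte-like cells thus held more of both chains in sham and TBI+IL-25. In endothelial cell-like cells Col4a1 was at 299, 565 and 706 CPM, 1.89-fold (1.36 to 2.68) and 2.36-fold (1.65 to 3.44) sham. Col4a2 was at 223, 479 and 460 CPM, 2.15-fold (1.48 to 3.25) and 2.06-fold (1.35 to 3.24) sham. The sham level was the lowest for both chains, and it rests on 39 and 29 UMIs from 37 cells. In TBI+PBS over sham 1 of 2 was at least 2-fold higher, beside 9.32% of all genes, and in TBI+IL-25 over sham 2 of 2, beside 12.9%. None was lower in either, where 3.34% and 12.8% of all genes were. Neither was past 2-fold between the injured libraries, where 4.16% and 8.67% of all genes were higher and lower.

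Markers of other classes were also counted in these cells, and their part in the collagen IV values was not tested. The 10 microglia markers summed to 5827, 2840 and 3627 CPM (34926 CPM in microglia-like cells), highest in sham. The 9 pericyte markers summed to 338, 1115 and 2596 CPM in endothelial cell-like cells (15665 CPM in pericyte-like cells), with 3, 0 and 0 of them at 0, and the 12 fibroblast markers to 223, 375 and 1068 CPM, with 8, 3 and 6 at 0. With cells that held at least 2 UMIs of another vascular class's markers left out, Col4a1 was 1.51-fold and 1.82-fold sham and Col4a2 2.38-fold and 2.75-fold. When each cell was classed by its own marker score, TBI+IL-25 over sham turned to 0.935-fold for Col4a1 and 0.933-fold for Col4a2.

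The pericyte-like cluster showed 9 of 9 pericyte markers, but its top genes began with the smooth muscle markers Acta2, Myh11 and Tagln. In its cells Col4a1 was at 131, 416 and 710 CPM, from 4, 25 and 31 UMIs. The ratio over sham was 3.18 (1.10 to 12.6) and 5.42 (1.92 to 21.1), and 25.4% and 27.6% of all genes tested there were at least 2-fold higher (7.3% and 10.8% at most 0.5-fold). Between the injured libraries Col4a1 was within 2-fold, where 9.19% and 11.6% of all genes were higher and lower. No pericyte-like cluster was found with Leiden resolution 0.5, with collagen genes among the variable genes, or with doublets kept, so these values rest on the clustering used. The smooth muscle markers summed to 589, 12731 and 13279 CPM in this cluster, so its makeup differed between libraries. The 10 microglia markers summed to 12703, 4094 and 481 CPM in it (34926 CPM in microglia-like cells). Those of choroid plexus epithelium summed to 4125, 66.6 and 91.6 CPM. Both were highest in sham, and their part in the Col4a1 values was not tested.

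Col4a1 and Col4a2 lie head to head on chromosome 8. Their annotated starts, 11312826 on the minus strand and 11312805 on the plus strand (GRCm38.p6), overlap by 22 bases, and the windows share 78 bases at chr8:11312777-11312854. These are printed on the plus strand, with the GC box in capitals, because they lie in the windows of both genes. Their function was not tested.
Col4a1 and Col4a2: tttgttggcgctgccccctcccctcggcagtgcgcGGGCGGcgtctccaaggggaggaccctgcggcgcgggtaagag
The starts of Col4a5 and Col4a6, the X-linked pair, lie 1343 bases apart in the same build.

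The shares of paired chains were compared across classes and libraries; a share reflects how well each 3′ end is captured as well as RNA level, so it is no measure of trimer makeup. Col4a1 was 52.8% (46.4 to 59.1), 58.2% (53.0 to 63.3) and 66.2% (61.8 to 70.4) of Col4a1 and Col4a2 UMIs in astrocyte-like cells, and 57.4%, 54.1% and 60.6% in endothelial cell-like cells, with overlapping intervals in the latter. In astrocyte-like cells the intervals of sham and TBI+IL-25 did not overlap.

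Collagen I chains differed between classes and libraries. Col1a1 was 62.1% (58.4 to 65.7), 56.0% (52.3 to 59.7) and 27.1% (23.0 to 31.6) of Col1a1 and Col1a2 UMIs in astrocyte-like cells. In fibroblast-like cells it was 50.9% (41.0 to 60.8), 48.2% (44.5 to 51.8) and 39.3% (33.4 to 45.5). In choroid plexus epithelium-like cells it was 0 of 106, with an exact binomial interval of up to 3.42%. TBI+IL-25 had the lowest share in both classes that held Col1a1.

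The other pairs differed by class. Col5a1 was 5.38% (2.19 to 10.8), 25.3% (18.6 to 33.1) and 34.6% (25.6 to 44.4) of Col5a1 and Col5a2 UMIs in astrocyte-like cells, lowest in sham. Col6a1 was 62.6% of Col6a1 and Col6a2 UMIs in fibroblast-like cells over the 3 libraries and 0 of 25 in oligodendrocyte-like cells. Col9a1 was 2.17% of Col9a1 and Col9a3 UMIs in astrocyte-like cells, 14.2% in oligodendrocyte-like cells and 0 of 897 in choroid plexus epithelium-like cells. Col4a5 was 95.7% of Col4a5 and Col4a6 UMIs in astrocyte-like cells and 62.5% in fibroblast-like cells.

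**Figure D5:**
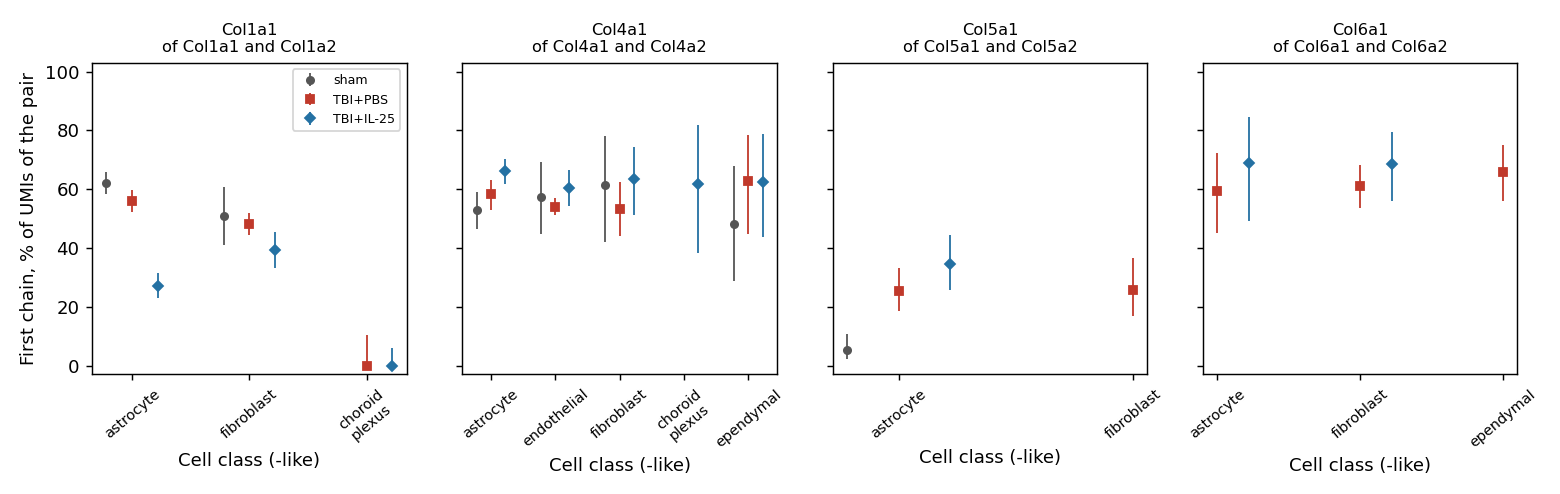
Share (%, vertical) of the first chain in the UMIs of 2 paired chains, in up to 5 cell classes (horizontal; pericyte-like cells are not drawn) by library, with 95% exact binomial intervals, where a library had at least 20 UMIs of the pair. The share of Col1a1 is lowest in TBI+IL-25 in astrocyte-like and fibroblast-like cells, and that of Col4a1 lies between 48.1% and 66.2% in the classes drawn.

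Fibroblast-like cells, the connective-tissue cells of meninges and vessels, had the highest collagen levels, 9389, 7617 and 5464 CPM. The ratio was 0.811 (0.719 to 0.918) and 0.582 (0.509 to 0.666) over sham, from 309 UMIs in 7 sham cells. With each cell classed by its marker score the ratios were 1.40 and 0.919, so the direction of the former turned. Leaving out cells with other vascular markers removed all 7 sham cells, and TBI+IL-25 over TBI+PBS then turned from 0.717 to 1.59. Col1a1 was at 1641, 1433 and 728 CPM, Col1a2 at 1580, 1542 and 1124 CPM, and Col3a1 at 760, 1409 and 622 CPM. For these 3 TBI+IL-25 was lowest, but without the cells with other vascular markers Col3a1 was 2.27-fold TBI+PBS. Col13a1, a transmembrane collagen, was at 1033, 174 and 141 CPM. Col15a1 was at 638, 202 and 205 CPM and Col18a1 at 517, 222 and 198 CPM, both highest in sham. Thinning to 1000 UMIs turned Col15a1 in TBI+PBS over sham from 0.316-fold to 1.56-fold, on 2, 12 and 6 UMIs.

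Col4a1 was at 577, 262 and 318 CPM there and Col4a2 at 365, 230 and 184 CPM, both highest in sham, where the endothelial cell-like levels were lowest. Col12a1 was at 669, 351 and 608 CPM. Col6a1 was at 182, 452 and 325 CPM, Col6a2 at 182, 287 and 148 CPM, Col5a2 at 91.2, 254 and 99.0 CPM, and Col8a1 at 30.4, 129 and 127 CPM. The sham levels of Col6a1, Col5a2 and Col8a1, the 3 counted as higher in TBI+PBS over sham, rest on 6, 3 and 1 UMIs. The sham intervals of Col5a2 (18.8 to 266 CPM) and Col8a1 (0.769 to 169 CPM) cover both injured levels. Col8a1 is also the 1 counted as higher in TBI+IL-25 over sham. Of the 13 members tested, 3 were higher and 4 lower in TBI+PBS over sham, beside 25.2% and 8.46% of all genes; 1 was higher and 4 lower in TBI+IL-25 over sham, beside 26.5% and 12.1%; and none was higher and 2 lower in TBI+IL-25 over TBI+PBS, beside 4.98% and 6.13%. Pericyte markers in these cells summed to 8083, 2337 and 650 CPM, with 5, 3 and 4 of 9 at 0, and their part in the collagen values was not tested.

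The epithelia of the ventricles held their own set. In choroid plexus epithelium-like cells, which secrete cerebrospinal fluid, Col9a3 was at 425, 383 and 440 CPM, Col8a1 at 142, 186 and 215 CPM, and Col8a2 at 73.4, 95.7 and 87.7 CPM. These 3 stayed within 2-fold in every pair. Col1a2 was at 25.9, 62.5 and 53.7 CPM, Col4a4 at 34.5, 12.9 and 40.3 CPM and Col18a1 at 19.4, 20.2 and 33.1 CPM. Of 6 members, 1 was higher and 1 lower in TBI+PBS over sham, beside 3.87% and 2.83% of all genes. Against sham, TBI+IL-25 had 1 higher and none lower, beside 5.87% and 2.92%, and against TBI+PBS it again had 1 higher and none lower, beside 4% and 2.67%.

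In ependymal cell-like cells, the ciliated lining of the ventricles, Col8a2 was at 152, 164 and 128 CPM, with Col8a1 at 0 UMIs in all 3 libraries against 152 of Col8a2. Col6a1 had 0, 68 and 8 UMIs. With the sham 0 set to 3 UMIs, TBI+PBS was 15.7-fold sham, a value without counting error. Col5a3 was at 100.2, 59.1 and 49.2 CPM, highest in sham, and Col4a1 was at 48.3, 56.5 and 54.7 CPM. Of 4 members 1 was higher and none lower in TBI+PBS over sham, beside 5.59% and 4.88% of all genes. Against sham, TBI+IL-25 had none higher and 1 lower, beside 4.68% and 5.14%, and against TBI+PBS it had none higher and 1 lower, beside 3.25% and 4.01%.

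In oligodendrocyte-like cells, the myelin-forming glia, Col16a1 was at 4.35, 19.3 and 20.4 CPM from 2, 42 and 57 UMIs, Col9a3 at 23.9, 22.5 and 19.7 CPM, and Col11a2 at 15.2, 19.7 and 3.94 CPM. Against sham, 1 of the 3 was higher and none lower in TBI+PBS, beside 9.12% and 2.45% of all genes, and 1 was higher and 1 lower in TBI+IL-25, beside 14.4% and 8.01%. Between the injured libraries none was higher and 1 was lower in TBI+IL-25, beside 5.09% and 5.65%. In neuroblast-like cells, immature neurons, Col9a3 was at 25.02, 33.9 and 23.5 CPM and Col11a1 at 18.5, 22.1 and 23.5 CPM, and neither was past 2-fold in any pair. Of all genes in these cells, 0.81%, 2.1% and 2.09% were at least 2-fold higher and 0.646%, 6.48% and 5.96% at most 0.5-fold, over sham in TBI+PBS and TBI+IL-25 and then between the injured libraries.

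The genes that modify, export, cleave, cross-link and bind collagen were followed over all cells, where 8.22% of all genes were higher and 5.27% lower in TBI+PBS over sham, 10.8% and 17.8% in TBI+IL-25 over sham, and 4.22% and 8.75% in TBI+IL-25 over TBI+PBS. Of 14 prolyl and lysyl modification genes tested, Crtap, part of the prolyl 3-hydroxylation complex, was higher at 2.12-fold (1.94 to 2.32) and P3h2, a prolyl 3-hydroxylase, lower at 0.482-fold (0.444 to 0.524) in TBI+PBS over sham (median log2 0.18, beside -0.10 for all genes). In TBI+IL-25 over sham P4hb and P4ha2, subunits of prolyl 4-hydroxylase, were 2.31-fold (2.23 to 2.39) and 2.35-fold (2.08 to 2.66), and P3h2 was 0.271-fold (0.245 to 0.299), with a median of -0.08 beside -0.23. None of 14 was past 2-fold in TBI+IL-25 over TBI+PBS. Of 10 chaperone and export genes 0 were past 2-fold in TBI+PBS over sham (median 0.07) and 1, Fkbp7, in TBI+IL-25 over sham, at 0.403-fold (0.369 to 0.441; median 0.02). Of 5 propeptide cleavage genes tested, Bmp1, the procollagen C-proteinase, was 2.05-fold (1.92 to 2.20) in TBI+PBS over sham (median 0.05), and none was past 2-fold in TBI+IL-25 over sham (median 0.42).

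Of 4 cross-linking oxidases tested, 2 were higher and 0 lower in each injured library over sham, where 8.22% and 10.8% of all genes were higher. Loxl1 had 153, 582 and 1728 UMIs, 2.61-fold (2.18 to 3.14) and 7.61-fold (6.45 to 9.04) sham, and 2.92-fold (2.66 to 3.21) in TBI+IL-25 over TBI+PBS. In astrocyte-like cells, which held most of them (137, 522 and 1649 UMIs), it was 2.69-fold (2.22 to 3.27) and 8.18-fold (6.87 to 9.81) sham. Lox, the other, rests on 7, 22 and 34 UMIs, and its ratio in TBI+PBS over sham was 2.15 (0.889 to 5.97). The list's median was 0.75 and 1.03 over sham, beside -0.10 and -0.23.

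Of 10 receptor and uptake genes tested, 2 were higher and 0 lower in TBI+PBS over sham (median 0.09) and 2 higher and 1 lower in TBI+IL-25 over sham (median -0.05), beside 8.22% and 5.27% and then 10.8% and 17.8% of all genes. Mrc1, a collagen-binding uptake receptor also listed as a macrophage marker, had 223, 814 and 109 UMIs. Itga1, a collagen-binding integrin subunit, was 2.84-fold (2.42 to 3.34) sham in TBI+PBS and 0.317-fold (0.275 to 0.366) TBI+PBS in TBI+IL-25. Ddr1, a collagen receptor kinase, was 2.02-fold (1.91 to 2.13) sham in TBI+IL-25.

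Of 14 basement membrane partners tested, 4 were higher and 1 lower in TBI+PBS over sham (median 0.28) and 3 higher and 2 lower in TBI+IL-25 over sham (median -0.20), against 8.22% and 5.27% and then 10.8% and 17.8% of all genes. Lama5, a laminin chain, was 2.79-fold (2.33 to 3.36) and 4.41-fold (3.71 to 5.28) sham, and Lama3 was 0.345-fold (0.258 to 0.458) and 0.178-fold (0.123 to 0.254). Nid1, which links laminin to collagen IV, was 4.43-fold (3.18 to 6.32) sham in TBI+PBS. In endothelial cell-like cells 2 of 9 partners were higher in each injured library, Nid1 and Lamc1, and 0 lower, beside 9.32% and 12.9% of all genes higher and 3.34% and 12.8% lower.

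Of 12 fibril-binding proteins tested, 4 were higher and 2 lower in TBI+PBS over sham (median 0.83), 6 higher and 0 lower in TBI+IL-25 over sham (median 0.59), and 0 higher and 5 lower in TBI+IL-25 over TBI+PBS (median -0.48). The shares of all genes were 8.22% and 5.27%, 10.8% and 17.8%, and 4.22% and 8.75%. Thbs1 was 43.1-fold (35.4 to 53.1) and 16.3-fold (13.3 to 20.1) sham, and Fn1, fibronectin, was 20.2-fold (17.7 to 23.2) and 4.75-fold (4.13 to 5.50). Dcn, decorin, was 6.35-fold (5.38 to 7.53) and 2.33-fold (1.95 to 2.81) sham. Fn1 is also on the list that marks monocyte/macrophage-like cells, of which there were 10, 247 and 107, and Dcn is on the fibroblast list.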

How the data were processed

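The deposited files are raw UMI counts, 1 value per gene and cell, whole numbers as deposited by the authors. Per the file headers the TBI+IL-25 matrix was written by Cell Ranger 7.2.0 and the other matrices by version 7.1.0, whereas the submitters' processing notes list 7.2.0 for every sample. Those notes also list Seurat 4.4.0 and the build GRCm39; printed sequences and coordinates are RefSeq's in GRCm38.p6. First, 211, 303 and 635 cells with a Scrublet doublet score above 0.2 were removed. Cells below 500 UMIs or 300 genes, or above 20% of UMIs from mitochondrial genes, were then dropped. Cells were clustered jointly on 2000 variable genes without collagen genes (30 components, 15 neighbours, Leiden resolution 1), with no batch integration, and clusters were named where at least 3 markers were present. UMIs were summed per library and class. Ratios carry exact conditional binomial 95% intervals, levels Poisson intervals and shares Clopper-Pearson intervals; these cover counting error only. A count of 0 was set to 3 UMIs for the limit drawn and for the value of a ratio. The procedure was tested on simulated data. Genes were named by 50 UMIs in the cells concerned, and partner genes as the up to 4 past 2-fold whose interval lies farthest from 1. The members, lists and comparisons were chosen with earlier results of these data known.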

Additional observations from a re-analysis of the deposited data

Results flagged for a closer look

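Opposite directions of 1 gene in 2 classes under the same comparison stood out; each was untested, since a group is 1 library. Col27a1 was higher in astrocyte-like and lower in microglia-like cells, at 3.05-fold (2.69 to 3.47) against 0.475-fold (0.453 to 0.497) in TBI+PBS over sham and 3.60-fold (3.17 to 4.08) against 0.406-fold (0.387 to 0.425) in TBI+IL-25 over sham. Within astrocyte-like cluster 1 alone the ratios were 0.911 and 0.459. Col4a1 in TBI+PBS over sham was 3.18-fold (1.10 to 12.6) in pericyte-like cells, from 4 sham UMIs, against 0.455-fold (0.269 to 0.803) in fibroblast-like cells. The pericyte-like cluster differed in makeup between libraries. Col5a3 in TBI+IL-25 over sham was 3.86-fold (3.18 to 4.71) in astrocyte-like cells against 0.491-fold (0.255 to 0.925) in ependymal cell-like cells. None of these differences between classes was tested.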

How the results depend on the processing

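No paired analysis was possible because each group is 1 library and the groups share only 1 replicate number. Of the single-gene values under an alternative, 2164 moved by less than the counting interval, 296 moved by more and 11 turned. Alternatives leaving fewer than 10 UMIs in a pair of libraries gave no value for that gene, and with 1 library per group none could be left out. Depth limits most classes: only microglia-like and astrocyte-like cells held more than 1000 cells in every library. Where no cause is shown by the alternative's own construction, the cause was not tested. Values below are in the order TBI+PBS over sham, TBI+IL-25 over sham and TBI+IL-25 over TBI+PBS where 3 are given.

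With median-of-ratios size factors the summed collagen ratio was 1.00, 0.947 and 0.948 over all cells and 0.516, 0.508 and 0.984 in microglia-like cells; in astrocyte-like cells it was 1.32 for TBI+IL-25 over sham and 1.06 for TBI+IL-25 over TBI+PBS, with 3 members in place of 5 at most 0.5-fold in the latter. In fibroblast-like cells it was 0.667 and 0.495 over sham. With doublets kept, the microglia-like sum was 0.469 for TBI+IL-25 over sham, and 3, 3 and 2 members in place of 1 were higher. With cells weighted equally, the sum was 0.900 over all cells for TBI+PBS over sham and 0.877 for TBI+IL-25 over TBI+PBS, where 6 in place of 10 members were lower; in microglia-like cells it was 0.548 for TBI+PBS over sham and 0.831 for TBI+IL-25 over TBI+PBS, where 1 in place of 0 was lower. The equally weighted astrocyte-like sum was 1.10, 1.04 and 0.939, with 2 members higher in the last, the endothelial cell-like count was 0 in place of 1 and 1 in place of 2 over sham, and the fibroblast-like sum was 0.879 for TBI+IL-25 over TBI+PBS.

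Gene minimums changed counts by testing more or fewer genes. With 20 UMIs, TBI+IL-25 over TBI+PBS had 5 members higher over all cells, 3 higher in microglia-like and 9 lower in astrocyte-like cells, and TBI+IL-25 over sham had 3 higher in microglia-like cells. With 200 UMIs, 0 were higher over sham in microglia-like cells, 4 in astrocyte-like cells, and 3 were lower there in TBI+IL-25 over TBI+PBS. With no minimum, 5 were higher over all cells in TBI+IL-25 over TBI+PBS; in microglia-like cells 6, 7 and 6 were higher and 9, 9 and 4 lower; in astrocyte-like cells 6, 10 and 11 were lower and 4 higher in the last pair; and in endothelial cell-like cells 3 and 1 were lower over sham and 5 higher in the last pair.

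With Leiden resolution 0.5, and likewise with collagen genes among the variable genes, 2 endothelial cell-like members in place of 1 were higher in TBI+PBS over sham. With each cell classed by its marker score, the endothelial cell-like sum turned to 0.856 for TBI+IL-25 over sham (Col4a1 0.935, Col4a2 0.933; 0 members higher) and was 0.492 for TBI+IL-25 over TBI+PBS, with 2 lower. Under that setting the microglia-like sum was 0.524 and 0.473 over sham, with 2 in place of 4 members lower in the former, the fibroblast-like sum was 1.40, 0.919 and 0.659, and the pericyte-like sum was 1.51 for TBI+IL-25 over sham and 1.16 for TBI+IL-25 over TBI+PBS. With cells holding other vascular markers left out, 1 astrocyte-like member was lower in TBI+PBS over sham, 0 were higher in TBI+IL-25 over TBI+PBS, and 1 endothelial cell-like member was higher in TBI+IL-25 over sham. That setting removed 7, 20 and 19 of the 7, 23 and 25 fibroblast-like cells. There the sum became 1.59 and Col3a1 2.27 for TBI+IL-25 over TBI+PBS. It also removed 5, 12 and 14 of the 5, 15 and 17 pericyte-like cells, whose sum became 4.32 in the same pair.

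With cells thinned to 1000 UMIs, fewer UMIs left fewer genes to test. The sum was 0.909, 0.824 and 0.906 over all cells, with 7 and 5 members higher over sham and 3 and 1 lower in TBI+IL-25 over sham and over TBI+PBS. In microglia-like cells it was 0.508 for TBI+PBS over sham and 0.882 for TBI+IL-25 over TBI+PBS, with 0 members higher over sham and 2 lower in TBI+PBS over sham. In astrocyte-like cells it was 1.15 for TBI+IL-25 over sham and 0.965 over TBI+PBS, with 4 and 4 members higher over sham and 1, 3 and 3 lower. The fibroblast-like sum was 0.758 for TBI+IL-25 over sham and 0.876 over TBI+PBS, and the pericyte-like sum 1.01 over TBI+PBS. Thinning turned Col4a4 over all cells in TBI+PBS over sham (2.28), Col6a1 over all cells in TBI+IL-25 over TBI+PBS (1.10) and Col15a1 in fibroblast-like cells in TBI+PBS over sham (1.56).

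Within single clusters, chosen after seeing the data, cluster 1 gave an astrocyte-like sum of 1.04, 0.751 and 0.722, with 0, 0 and 0 members higher and 0, 3 and 1 lower, and cluster 3 gave 0.889 and 0.819 over sham, with 1, 1 and 0 higher and 1 lower in TBI+IL-25 over TBI+PBS. Turned there were Col27a1 in cluster 1 (0.911 and 0.459 over sham), Col12a1 in cluster 1 (0.502 for TBI+IL-25 over sham and 0.493 over TBI+PBS) and Col7a1 in cluster 3 (1.07 for TBI+IL-25 over sham). Microglia-like cluster 4 gave a sum of 0.573, 0.700 and 1.22, with 0 members higher in TBI+PBS over sham and 1 and 0 lower over sham.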

Other observations

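The 11 collagen genes with 1 to 49 UMIs over the libraries were left out of the counts above. Col4a3, partner of Col4a4 in specialised basement membranes, had 6, 16 and 22 UMIs, of which choroid plexus epithelium-like cells held 3, 10 and 19. Col17a1, a transmembrane collagen of epithelial attachment, had 5, 6 and 29 UMIs. Col6a5 had 1, 7 and 15 UMIs, and ependymal cell-like cells held 0, 7 and 15 of them. Col20a1 had 15, 19 and 11 UMIs, Col10a1 had 6, 5 and 10, and Col22a1 had 3, 6 and 5. The other members, Col6a4, Col6a6, Col19a1, Col24a1 and Col28a1, had between 0 and 5 UMIs in every library.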
